A study of Mus musculus with 8 samples.

Results

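The 10 genes described here encode laminins and other glycoproteins of the basal lamina, the sheet of matrix that surrounds each myofiber and covers the muscle stem cells (MuSCs) beneath it. They were taken by gene name from the 55487 genes of the count table: the laminin α chain genes *Lama2*, *Lama4* and *Lama5*, the β chain genes *Lamb1* and *Lamb2*, the γ chain gene *Lamc1*, the nidogen genes *Nid1* and *Nid2*, the perlecan gene *Hspg2* and the fibronectin gene *Fn1*. All 10 passed the filter on low counts, so none is missing from the counts below. The study sequenced MuSC RNA from 4 libraries after denervation (DEN) and 4 after sham surgery, all taken 21 days after the operation, with each data point of its MuSC RNA-seq plots standing for 1 animal. In DEN mice a piece of the sciatic nerve was cut out on 1 side, and in sham mice the nerve was located and left whole. All were male C57BL/6J mice, and the age stated for the study's mice is 2 to 6 months. Whether the opposite leg was also used is not given in the sources used here. MuSCs were sorted from digested hind limb muscles as α7-integrin positive and Sca-1, CD11b, CD31 and CD45 negative cells, a gate that keeps any other cell with the same surface. DEN replicate 1 was left out by the study on inspection of a multidimensional scaling plot. DEN values are therefore those of replicates 2 to 4 (n = 3) against sham replicates 1 to 4 (n = 4). For the members and the sums of cell type markers, DEN replicate 1 is given apart.

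A laminin is a trimer of 1 α, 1 β and 1 γ chain, and the chains that a cell makes set which trimers it can secrete. Trimers polymerise into a network at the cell surface, where integrins and dystroglycan hold them. Nidogens and perlecan join this network to that of type IV collagen. Loss of the *LAMA2* chain causes a congenital muscular dystrophy in humans. Fibronectin is a matrix protein bound by other integrins, and in mouse muscle it is known as a niche component that MuSCs respond to.

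Between DEN and sham MuSCs, *Fn1*, *Lamb1* and *Lamc1* were called lower after DEN, and no member was called higher. Of all 17454 genes tested, 5.32% were called lower and 5.29% higher. *Fn1* kept its call under all 17 alternative ways of processing, while *Lamb1* lost it under 2 and *Lamc1* under 7. By the fitted fold changes *Fn1* fell by 30.2%, *Lamb1* fell by 25.5% and *Lamc1* fell by 24%. The other 7 members did not pass the test. Within the β chains, *Lamb2* outweighed *Lamb1* 13.08 ± 0.077 times per length after DEN (mean ± SD, n = 3) against 8.78 ± 0.388 times after sham surgery (n = 4), a difference that did not pass after adjustment over 4 ratios (exact permutation test, p = 0.0286, adjusted p = 0.114).

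Short coding stretches show where *Fn1* and *Lamc1*, both lower after DEN, carry the sites by which their proteins bind partners. They were read from the GRCm38 annotation of GENCODE M21 and are written 5′ to 3′ on the strand of the gene. That of *Fn1* lies in exon 30 of its longest coding transcript, at chr1:71606719-71606778 on the minus strand, and the capitals mark the codons of the arginine-glycine-aspartate tripeptide, which integrins bind, and of the serine after it. That of *Lamc1* lies in exon 14, at chr1:153243337-153243405 on the minus strand, and the capitals mark the codons of the heptapeptide to which nidogen binds. The tripeptide with its serine, and the heptapeptide, each occur once in the protein.
Fn1: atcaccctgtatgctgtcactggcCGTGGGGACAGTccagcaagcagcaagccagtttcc
Lamc1: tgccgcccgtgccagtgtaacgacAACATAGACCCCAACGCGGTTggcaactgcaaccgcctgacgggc

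The starts of the 2 β chain genes are shown because *Lamb1* was called lower and its paralog *Lamb2* was not called. RefSeq windows on GRCm38.p6, from 250 bases before to 50 bases after the start, were found for 6 of the 10 members (*Hspg2*, *Lama2*, *Lama5*, *Lamb1*, *Lamb2* and *Nid1*). The *Lamb1* window lies at chr12:31265043-31265342 and the *Lamb2* window at chr9:108479612-108479911, both on the plus strand. Capitals mark matches to the GC box GGGCGG on either strand.
Lamb1: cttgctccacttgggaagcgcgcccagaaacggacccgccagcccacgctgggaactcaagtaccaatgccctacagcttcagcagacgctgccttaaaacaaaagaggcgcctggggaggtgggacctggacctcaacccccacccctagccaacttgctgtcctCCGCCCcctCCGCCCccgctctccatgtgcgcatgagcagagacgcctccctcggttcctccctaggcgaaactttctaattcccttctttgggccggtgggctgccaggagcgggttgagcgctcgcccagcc
Lamb2: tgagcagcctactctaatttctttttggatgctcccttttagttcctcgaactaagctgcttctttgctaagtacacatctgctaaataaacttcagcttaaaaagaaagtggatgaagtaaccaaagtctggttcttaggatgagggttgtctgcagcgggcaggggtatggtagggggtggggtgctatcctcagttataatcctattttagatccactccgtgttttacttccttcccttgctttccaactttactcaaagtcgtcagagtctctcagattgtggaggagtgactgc

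The *Lamb1* window holds 63.7% GC, 18 CpG and 2 GC boxes, and the *Lamb2* window 44.0% GC, 4 CpG and 0 GC boxes. The median of all 32851 windows was 52.7% GC, and 35.7% of them held a GC box. The letters TGANTCA, an AP-1 site, were searched on both strands and are in none of the 6 member windows and in 7.81% of all windows. TATAAA is likewise in none of the 6 and in 13.6% of all windows. CANNTG, an E-box, is in the windows of *Lama2*, *Lama5*, *Lamb1* and *Lamb2* and in 72.3% of all windows. These are letter matches and no measure of binding.

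The genes lie apart on the GRCm38 genome. *Fn1* (46 exons in its longest transcript) and *Lamc1* (28 exons) are both on chromosome 1 minus strand, with *Lamc1* at chr1:153218922-153332786. *Lamb1* (33 exons) is at chr12:31265234-31329644 on the plus strand, and *Lamb2*, also with 33 exons but 10.8 kb in span, at chr9:108479736-108490530 on the plus strand. *Lama2*, with 639.7 kb the longest span of the 10, is at chr10:26980036-27619758 on the minus strand, *Lama4* at chr10:38965515-39110188 on the plus strand and *Lama5* at chr2:180176373-180225859 on the minus strand. *Nid1* is at chr13:13437551-13512269, *Nid2* at chr14:19751265-19811787 and *Hspg2*, with 97 exons, at chr4:137468769-137570630, all on the plus strand. Exons of *Fn1*, *Lama2*, *Nid1* and *Nid2* share bases with another gene, and those of the other 6 members with none. *Gm48084* in *Lama2* and *Gm48682* in *Nid1* had means of 0 and 0.00432 CPM.

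Levels are compared between genes per length, as the deposited RPKM (reads scaled by library total and gene length), and between groups as normalized CPM (counts scaled by library total and by TMM). Over the 7 libraries, the highest mean level per length was that of *Lamb2*, a β chain of the synaptic basal lamina, with 92.2 RPKM. *Nid1* followed with 63.6 RPKM and *Lamc1*, the γ chain of most laminins, with 62.7 RPKM. These 3 genes were above 94.8% or more of the tested genes. *Nid2* had 16.4 RPKM, *Lama2* 13.4 RPKM, *Hspg2* 9.91 RPKM, *Lamb1* 8.94 RPKM and *Lama4* 7.83 RPKM. *Fn1* with 3.40 RPKM and *Lama5* with 1.79 RPKM were lowest, above 45.4% and 34.3% of the tested genes. The ranges over the 7 libraries separated *Lamb2* from *Nid1*, *Lamc1* from *Nid2*, *Lama4* from *Fn1* and *Fn1* from *Lama5*. All other neighbours in this order overlapped. The order therefore has *Lamb2* on top, *Nid1* and *Lamc1* next, a middle group of 5 genes, and *Fn1* and *Lama5* below.

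**Figure D1:**
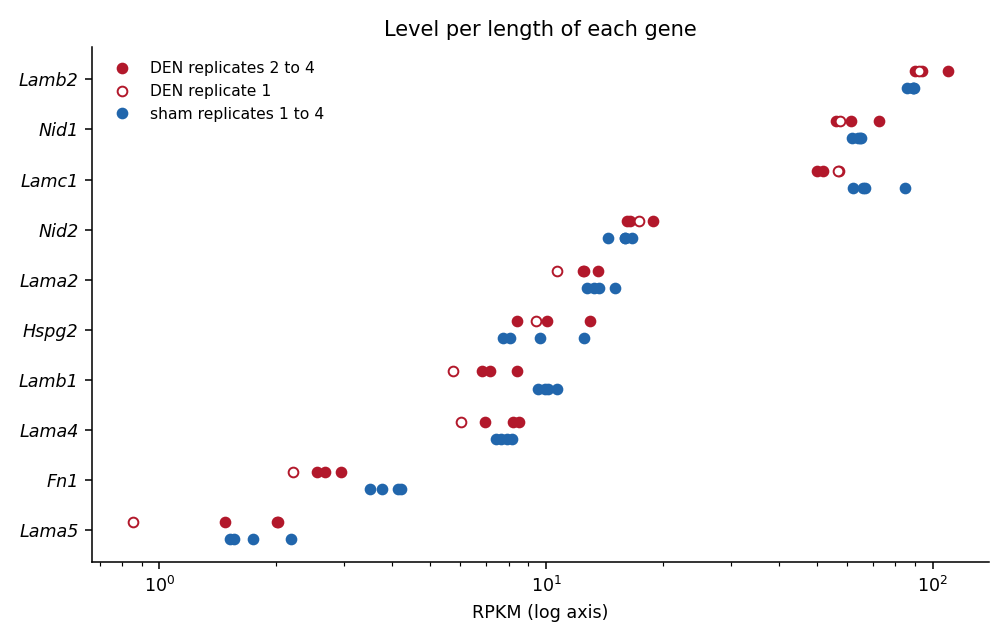
Level per length (RPKM, log axis) of the 10 genes in each library, ordered by the mean over 7 libraries. Red points are DEN replicates 2 to 4, the open red point is DEN replicate 1 and blue points are sham replicates. *Lamb2*, *Nid1* and *Lamc1* lie to the right of the other 7 genes in every library.

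Of the 10 members, 3 were called lower at an adjusted p under 0.05 (edgeR's quasi-likelihood test, Benjamini-Hochberg over all genes tested), against 5.32% of the 17454 genes tested. None was called higher, against 5.29% of those genes, and 0 were higher at an unadjusted p under 0.05 or by DESeq2. The members' median log2 fold change, DEN over sham, was 0.0052, beside −0.001 over all genes. In 4 members the DEN and sham libraries did not overlap (lower for *Fn1*, *Lamb1* and *Lamc1*, higher for *Lamb2*), against 23.4% of all genes in either direction. The members are long genes. Among the 5776 tested genes at least as long as the shortest member, 7.93% were called lower and 4.05% higher, with a median log2 fold change of −0.06.

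*Fn1* had 34.5, 31.3 and 29.8 CPM in DEN replicates 2 to 4, and 43.8, 48.1, 49.6 and 41.1 CPM in sham replicates 1 to 4. DEN replicate 1 had 26.7 CPM. Every DEN library was below every sham library. The log2 fold change was −0.52 (SE 0.098, 95% interval −0.74 to −0.30, adjusted p = 0.00829, edgeR), and *Fn1* was called lower under each of the 17 alternatives. The gene spans chr1:71585520-71653200, and its count sums all of its splice forms. In an unstranded count, 292 of its exon bases are shared with *Apol7d*, which had a mean of 0.0832 CPM.

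Of the β chains, *Lamb1* had 67.8, 83.7 and 71.2 CPM in DEN replicates 2 to 4. Sham replicates 1 to 4 had 105.1, 94.1, 99.3 and 100.2 CPM, and DEN replicate 1 had 58.6 CPM. The DEN libraries, replicate 1 included, were all below the sham libraries. The log2 fold change was −0.43 (SE 0.087, 95% interval −0.62 to −0.23, adjusted p = 0.0125, edgeR). The call was lost without DEN replicate 2 (log2 fold change −0.36, adjusted p = 0.0575) and without DEN replicate 4 (−0.39, adjusted p = 0.0502), each with 2 DEN libraries left.

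*Lamb2* had 547.1, 667.6 and 570.1 CPM in DEN replicates 2 to 4, and 540.5, 536.8, 525.2 and 539.9 CPM in sham replicates 1 to 4. DEN replicate 1 had 576.6 CPM. All DEN libraries were above all sham libraries, but the closest pair differed by little and DEN replicate 3 stood above the rest. Its log2 fold change was 0.15, short of the threshold (SE 0.080, 95% interval −0.03 to 0.33, adjusted p = 0.271, edgeR).

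*Lamc1* had 473.6, 415.4 and 429.6 CPM in DEN replicates 2 to 4, and 544.2, 511.0, 559.4 and 699.4 CPM in sham replicates 1 to 4. DEN replicate 1 had 484.4 CPM. No DEN library reached the lowest sham library, and sham replicate 4 was the highest of all. The log2 fold change was −0.40 (SE 0.108, 95% interval −0.64 to −0.16, adjusted p = 0.0432, edgeR). Its adjusted p was the largest of the 3 called members. The call was lost without DEN replicate 2, 3 or 4, with log2 fold changes of −0.45, −0.36 and −0.38 (adjusted p = 0.0703, 0.135 and 0.124). It was lost without sham replicate 3 or 4, with −0.41 and −0.29 (adjusted p = 0.0657 and 0.0606). It was also lost, with −0.33 (adjusted p = 0.0755), when each library's trend with gene length was removed. This trend was fitted to the log2 level of each gene relative to its mean over the libraries.

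**Figure D2:**
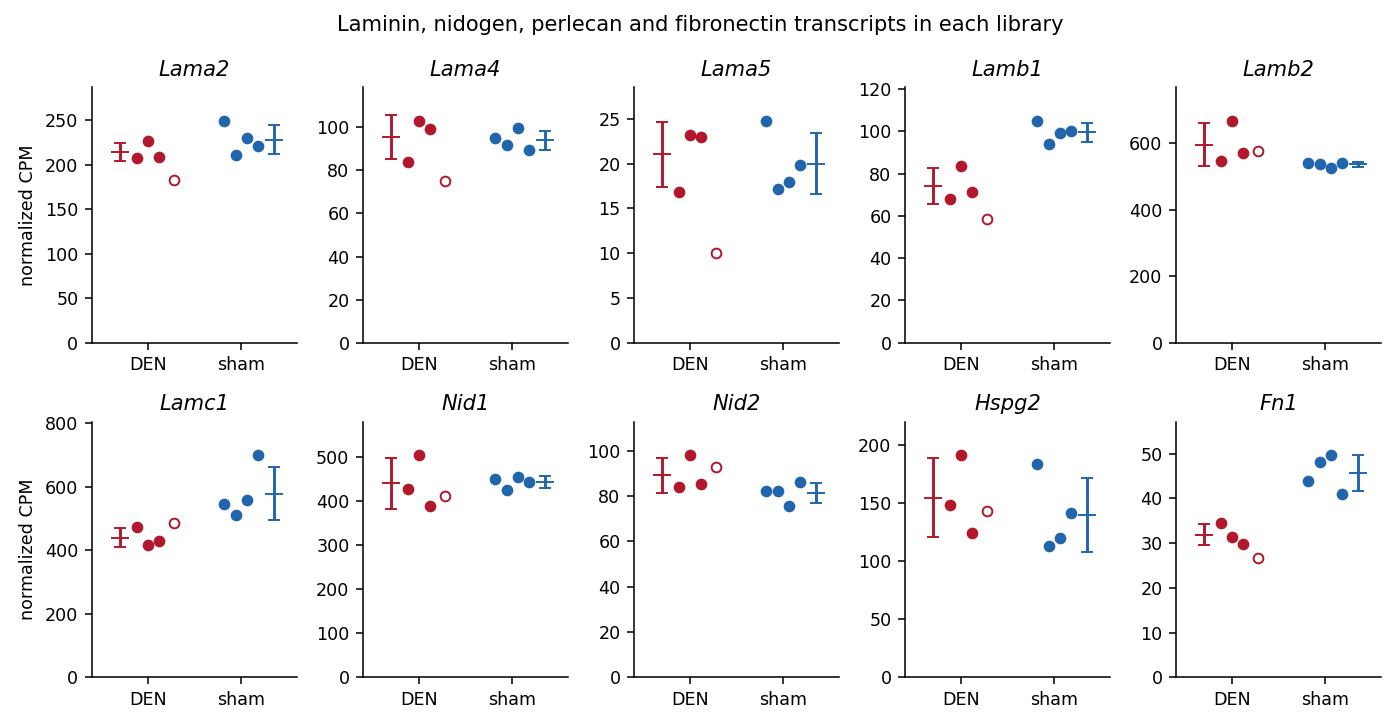
Normalized CPM of the 10 genes in each library, with each vertical axis starting at 0. Filled red points are DEN replicates 2 to 4, open red points DEN replicate 1 and blue points sham replicates, and bars are the mean ± SD of the filled points. DEN and sham points separate for *Lamb1*, *Lamb2*, *Lamc1* and *Fn1*.

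The α chains showed no change that passed the test. *Lama2*, whose chain is the main one of the adult myofiber basal lamina, had 207.0, 226.1 and 208.8 CPM in DEN replicates 2 to 4, and 249.3, 210.8, 230.1 and 221.0 CPM in sham replicates 1 to 4. The groups overlapped, and DEN replicate 1 with 182.4 CPM lay below them. Its log2 fold change was −0.09 (95% interval −0.26 to 0.08, adjusted p = 0.523, edgeR). *Lama4*, the α chain of vascular and peripheral nerve laminins, had 83.8, 103.1 and 99.0 CPM in DEN replicates 2 to 4 and 89.3 to 99.6 CPM in sham libraries. It averaged 95.3 ± 10.2 CPM after DEN (mean ± SD, n = 3) against 94.0 ± 4.45 CPM after sham surgery (n = 4), with 74.8 CPM in DEN replicate 1. Its log2 fold change was 0.02 (95% interval −0.17 to 0.21, adjusted p = 0.921, edgeR). *Lama5*, the α chain of many epithelial laminins and of the synaptic basal lamina, had 21.0 ± 3.59 CPM after DEN (mean ± SD, n = 3) against 19.96 ± 3.41 CPM after sham surgery (n = 4), with 10.02 CPM in DEN replicate 1. Its log2 fold change was 0.07 (95% interval −0.28 to 0.43, adjusted p = 0.834, edgeR).

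The linkers of the network did not pass the test either. *Nid1* had 426.8, 503.9 and 389.7 CPM in DEN replicates 2 to 4, and 425.2 to 454.2 CPM in sham libraries, with a log2 fold change of −0.01 (95% interval −0.21 to 0.19, adjusted p = 0.964, edgeR). The DEN libraries spread on both sides of the sham libraries, and DEN replicate 1 had 411.8 CPM. *Nid2* had 83.8, 98.0 and 85.4 CPM in DEN replicates 2 to 4, and 75.4 to 86.1 CPM in sham libraries, with a log2 fold change of 0.13 (95% interval −0.05 to 0.31, adjusted p = 0.376, edgeR). DEN replicate 1 had 92.7 CPM of *Nid2*. The exons of *Nid2* share 437 bases with *Rtraf* on the other strand, which had a mean of 103 CPM and a log2 fold change of 0.18 (adjusted p = 0.224, edgeR). How reads in these bases were counted is not given, so the *Nid2* count may have gained or lost reads there. *Hspg2*, the core protein of the heparan sulfate proteoglycan perlecan, varied most, relative to its mean, among libraries of the same group, with 148.0, 191.3 and 124.4 CPM in DEN replicates 2 to 4 and 184.1, 113.3, 120.3 and 141.9 CPM in sham replicates 1 to 4. Its log2 fold change of 0.14 had a 95% interval of −0.25 to 0.54 (adjusted p = 0.690, edgeR). DEN replicate 3 and sham replicate 1 were the highest libraries of their groups for *Hspg2*, and DEN replicate 1 had 143.2 CPM.

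Some libraries were high or low for most members. DEN replicate 3 was above its group's mean for 8 of the 10 members, and DEN replicates 2 and 4 were each below it for 8. Sham replicate 1 was above its group's mean for 8 members.

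**Figure D3:**
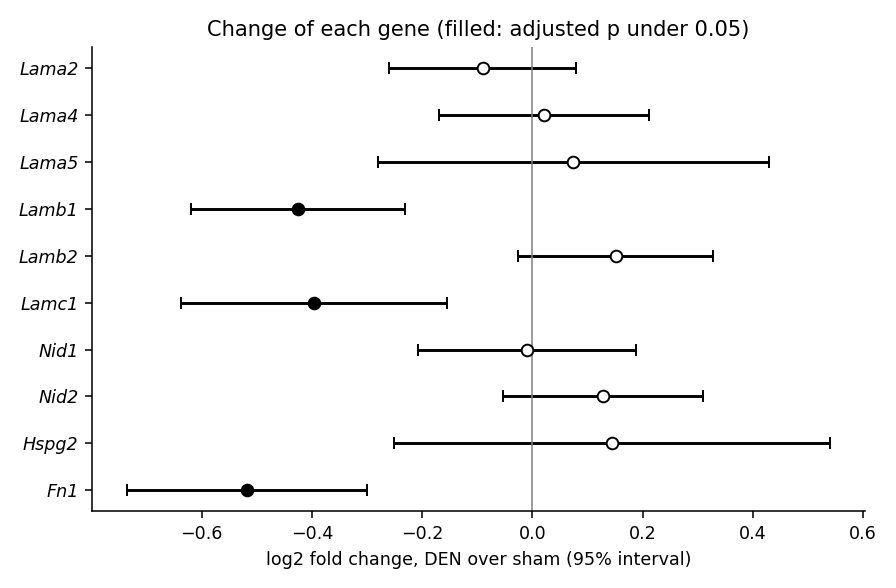
Log2 fold change, DEN over sham, of each gene with its 95% interval from the edgeR fit of 3 DEN and 4 sham libraries. Filled points passed an adjusted p under 0.05. The intervals of *Fn1*, *Lamb1* and *Lamc1* lie below 0, and those of the other 7 genes include 0.

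A ratio of paralogs within a library does not depend on how libraries are scaled. The ratio of *Lamb2* to *Lamb1* per length was 13.16, 13.01 and 13.05 in DEN replicates 2 to 4, and 8.39, 9.30, 8.62 and 8.79 in sham replicates 1 to 4. DEN replicate 1 had 16.05. Every DEN library was above every sham library. The log2 difference was 0.58 (exact two-sided permutation test over 35 divisions, p = 0.0286, the smallest this design allows), and p was 0.114 after adjustment over the 4 ratios. *Lamb1* was 7.10 ± 0.039% of the summed β chain RPKM after DEN (mean ± SD, n = 3) against 10.24 ± 0.400% after sham surgery (n = 4).

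The other ratios differed less. *Nid2* over *Nid1* was 0.264, 0.261 and 0.294 in DEN replicates 2 to 4, and 0.246, 0.259, 0.223 and 0.260 in sham replicates 1 to 4. The groups just failed to overlap, with a log2 difference of 0.14 (exact permutation test, p = 0.114, adjusted p = 0.229). DEN replicate 1 had 0.302. *Lama4* over *Lama2* had a log2 difference of 0.10 and *Lama5* over *Lama2* one of 0.16, each with overlapping groups (exact permutation test, p = 0.257 and adjusted p = 0.257 for each). *Lama2* made up 57.0 ± 2.35% of the summed α chain RPKM after DEN (mean ± SD, n = 3) against 59.0 ± 0.754% after sham surgery (n = 4). The summed β chain RPKM was 2.00 ± 0.335 times that of *Lamc1* after DEN (mean ± SD, n = 3) against 1.42 ± 0.180 times after sham surgery (n = 4). This ratio did not overlap between the groups, and it was not tested.

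**Figure D4:**
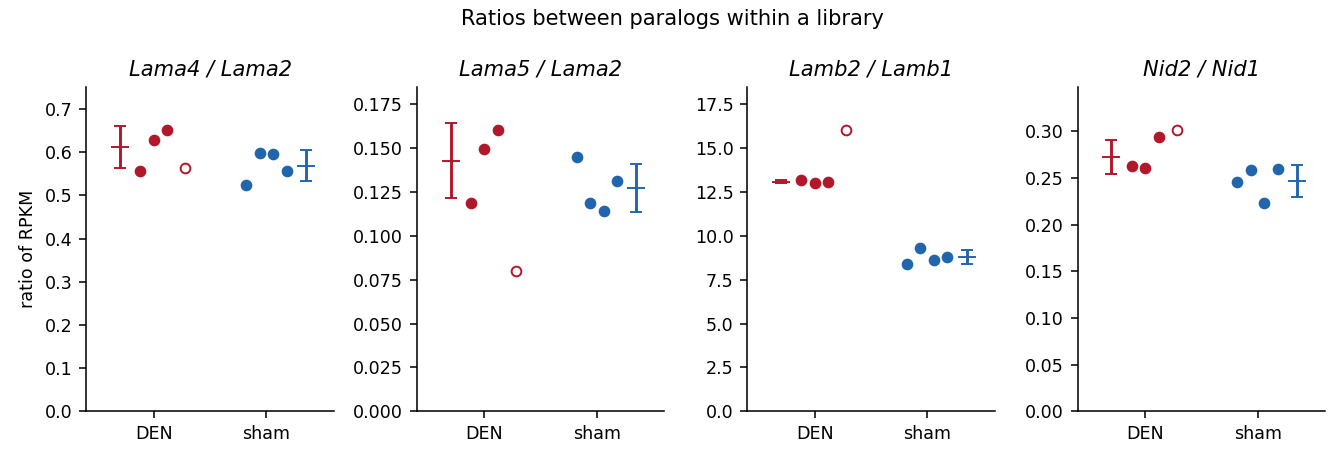
Ratio of RPKM within each library for 4 pairs of paralogs, with every vertical axis starting at 0. Filled red points are DEN replicates 2 to 4, open red points DEN replicate 1 and blue points sham replicates, and bars are the mean ± SD of the filled points. The *Lamb2* to *Lamb1* ratio is between 13.01 and 13.16 in the filled DEN points and between 8.39 and 9.30 in the sham points.

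Among the other genes of laminin type, 5 of 6 were tested, with 1 higher and 1 lower after DEN. The share over all genes tested, for this list and those below, was 5.29% called higher and 5.32% called lower. *Ntn4*, a laminin-related netrin that binds laminin γ chains, was higher, with 656.1, 568.8 and 666.5 CPM in DEN replicates 2 to 4 and 405.9, 343.9, 302.0 and 274.5 CPM in sham replicates 1 to 4 (log2 fold change 0.93, adjusted p = 0.00122, edgeR). *Lamc3*, another γ chain, fell by 0.88 on the log2 scale (adjusted p = 0.00708, edgeR). Its level in DEN replicate 1, 46.1 CPM, lay within the 44.7 to 70.3 CPM of the sham libraries. With all 8 libraries, and by DESeq2, 1 gene of this list was higher and 2 were lower.

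Of 22 other basal lamina components, all tested, 1 was higher and 4 were lower. *Smoc2*, a secreted calcium-binding matrix protein, had 16.4, 14.9 and 14.0 CPM in DEN replicates 2 to 4 and 32.0 to 55.1 CPM in sham libraries (log2 fold change −1.56, adjusted p = 5.54e-04, edgeR). *Col18a1*, a basement membrane collagen whose end fragment is endostatin, was higher, with 139.7 to 178.9 CPM in DEN libraries and 91.1 to 115.0 CPM in sham libraries (log2 fold change 0.66, adjusted p = 0.00408, edgeR). Its level in DEN replicate 1 was 134.2 CPM. *Col4a3*, a minor type IV collagen chain, fell by 0.80 (adjusted p = 0.0186, edgeR). The median over the 22 was a log2 fold change of −0.20. With all 8 libraries, 2 of these components were higher and 4 lower.

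A list of 22 genes held laminin and dystroglycan receptors, proteins of the dystroglycan complex and enzymes that modify dystroglycan. Of these, 21 were tested, with 0 higher and 2 lower by edgeR (0 higher at an unadjusted p under 0.05, and 0 by DESeq2). *Utrn*, the dystrophin paralog that links dystroglycan to the cytoskeleton, fell by 0.58 (adjusted p = 0.00653, edgeR). *Itgb4*, a laminin receptor of hemidesmosomes, fell by 0.93 (adjusted p = 0.0192, edgeR). Of 11 fibronectin receptor genes, 9 were tested, with 2 higher and 0 lower by edgeR (1 lower at an unadjusted p under 0.05, and 0 by DESeq2). *Itga5*, the α subunit of the main fibronectin receptor, had 76.0, 54.9 and 57.3 CPM in DEN replicates 2 to 4 and 25.1 to 34.8 CPM in sham libraries (log2 fold change 1.08, adjusted p = 0.00100, edgeR). DEN replicate 1 had 36.0 CPM of *Itga5*, close to the highest sham library. *Itgb8*, an integrin subunit that binds latent TGF-β together with *Itgav*, had 16.5 to 44.6 CPM in DEN libraries and 5.56 to 6.47 CPM in sham libraries (log2 fold change 2.19, adjusted p = 0.00107, edgeR). The median log2 fold change was −0.03 over the tested genes of the laminin and dystroglycan list and 0.03 over those of the fibronectin list. *Fn1*, which encodes the ligand of the *Itga5* receptor, was lower in the same DEN libraries.

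**Figure D5:**
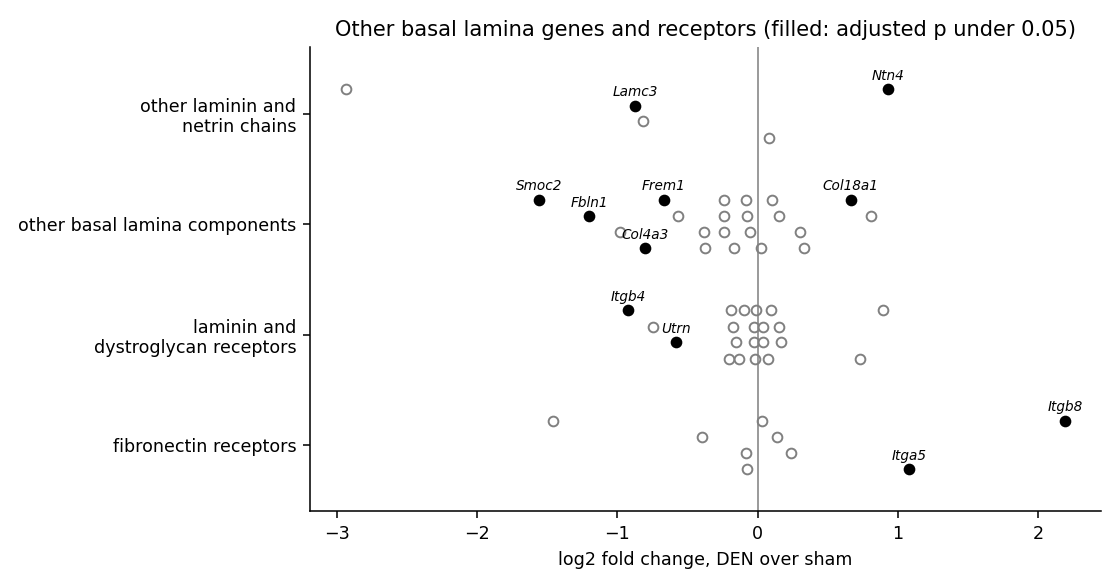
Log2 fold change, DEN over sham, of each tested gene of 4 lists (points, spread vertically only to keep them apart). Filled, named points passed an adjusted p under 0.05. Of 9 tested fibronectin receptor genes, 2 were called, both to the right of 0. Of 21 tested genes of the laminin and dystroglycan receptor list, 2 were called, both to the left. Over all genes tested, 5.29% were called higher and 5.32% lower.

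The sorted cells held markers of MuSCs and of vessel wall cells. *Pax7*, which defines MuSCs, averaged 142.8 CPM in DEN libraries and 125.6 CPM in sham libraries, and of 8 MuSC markers 2 were higher. The MuSC markers summed to 7002 to 7842 CPM in DEN libraries and 6287 to 7411 CPM in sham libraries, below the smooth muscle and pericyte sum in every library. Of 8 smooth muscle and pericyte markers, 1 was higher (*Kcnj8*) and 2 lower (*Acta2* and *Myh11*), and they summed to 9708 to 10170 CPM in DEN libraries and 9468 to 12210 CPM in sham libraries, all 8 above 0 in both groups. Smooth muscle cells and pericytes are known to make laminins and perlecan. The 8 fibro-adipogenic progenitor markers summed to 2228 to 2474 CPM in DEN libraries and 2955 to 4054 CPM in sham libraries. Of these 8, 1 was called higher (*Col1a1*, log2 fold change 0.35) and 2 lower (*Dcn*, −1.40, and *Col3a1*, −0.57). *Col3a1* made up most of the sum, with 1707 to 1834 CPM in DEN libraries and 2249 to 3310 CPM in sham libraries, while the list's median was 0.14 on the log2 scale. The Sca-1-negative gate is meant to remove these progenitors. Of 8 Schwann cell markers 4 were higher and 2 lower, with a summed level of 146.9 to 294.3 CPM in DEN libraries and 263.7 to 384.7 CPM in sham libraries. Of 8 myofiber markers 7 were higher, with 748.5 to 814.4 CPM in DEN libraries and 225.7 to 377.7 CPM in sham libraries. Of 7 erythroid markers 5 were lower, with 1957 to 2964 CPM in DEN libraries and 5070 to 10200 CPM in sham libraries. The erythroid and fibro-adipogenic sums were both below sham in every DEN library, as *Fn1*, *Lamb1* and *Lamc1* were. No marker of endothelium, tenocytes or macrophages was called by edgeR. At an unadjusted p under 0.05, 2 endothelial markers were lower and 1 tenocyte marker was higher, and DESeq2 called 2 endothelial markers lower and 0 tenocyte or macrophage markers. Endothelial markers summed to 173.2 to 192.9 CPM in DEN libraries and 190.2 to 237.4 CPM in sham libraries. *Tek* made up most of this sum, with 137.2 to 168.1 CPM in DEN libraries and 148.1 to 203.3 CPM in sham libraries. Tenocyte markers summed to 45.4 to 66.7 CPM in DEN libraries and 50.2 to 60.2 CPM in sham libraries, with *Kera* at 0 in all libraries. Macrophage markers summed to 91.8, 2.41 and 2.98 CPM in DEN replicates 2 to 4 and 14.2 to 50.7 CPM in sham libraries. In DEN replicate 1, MuSC markers summed to 7893 CPM, smooth muscle and pericyte markers to 8735 CPM and fibro-adipogenic markers to 2257 CPM. Its Schwann cell sum was 90.1 CPM, its myofiber sum 978.2 CPM and its erythroid sum 1599 CPM. Its endothelial sum of 253.3 CPM was above every sham library, with 38.5 CPM for tenocytes and 1.08 CPM for macrophages. Mitochondrially encoded genes took 2.35 to 2.84% of counts in DEN libraries and 3.67 to 5.99% in sham libraries. The part of these shifts in the levels of the 10 genes was not tested, and fewer cells of a type and less RNA per cell cannot be told apart in these libraries.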

How the data were processed

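MuSC RNA was turned into full-length cDNA (SMART-Seq v4, Nextera XT libraries) and read from single ends (75 bp). The authors made the deposited gene counts with bcl2fastq 2.20.0.422, cutadapt 2.1, TopHat2 2.1.0 on GRCm38 and featureCounts 1.6.5 without regard to strand (versions from the submitters' processing notes). RPM and RPKM as deposited were made by the authors from these counts, per library total and per gene length. How reads in exon bases shared by different genes were counted is not given in the sources used here, so reads of overlapping genes cannot be told apart.

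Total counts were 28541080 to 31572843 in DEN replicates 2 to 4, 26627173 in DEN replicate 1 and 29048620 to 34145854 in sham libraries. Genes were kept by filterByExpr (minimum count 10, minimum total 15), scaled by TMM, compared with the robust quasi-likelihood test of edgeR 4.0.16 in R 4.3.3 and adjusted over all 17454 genes. The study itself tested with DESeq2, used here (version 1.42.0) as an alternative. Ratios of paralogs are shown as RPKM and were compared by exact permutation of the log2 ratio of counts, with 0.5 added to each count (1 in an alternative). The other alternatives were RLE and upper quartile factors, no filter, a CPM above 1 in at least 3 libraries, limma 3.58.1 on log2(RPM + 0.5), all 8 libraries, each library left out, a replicate block, no mitochondrial and globin genes, and removal of the length trend. The members and all lists (other laminin and netrin chains, other basal lamina components, laminin and fibronectin receptors, and markers of 9 cell types) were chosen with earlier results of these data known. All members are named, and from each list other than the cell type markers up to 3 called genes with the smallest adjusted p. Called markers are named only for smooth muscle and pericytes and for fibro-adipogenic progenitors. *Pax7*, *Tek*, *Kera*, *Itgav* and genes that share exon bases with a member are named outside these rules. Positions are from GENCODE M21. A gene of the list of other laminin and netrin chains is not reported here.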

Additional observations from a re-analysis of the deposited data

Results flagged for a closer look

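The ratio of *Lamb2* to *Lamb1* RPKM in DEN replicate 1 was 16.05, above the 13.01 to 13.16 of the other 3 DEN libraries, whose spread was small. Its gap to the nearest of them was 0.951 of the whole range of the 4 DEN libraries, past Dixon's critical value for 4 libraries. The *Lamb2* level in sham replicate 3 was 85.45 RPKM, below the 88.74 to 89.24 RPKM of the other 3 sham libraries, with a gap of 0.868 of the range. These were 2 values past the critical value among 48 groups of 4 libraries (10 genes in normalized CPM and in RPKM and 4 ratios, each in DEN and in sham), where chance gives about 1 in 20, and the 2 scales of a gene are not independent. *Lamb2* in normalized CPM was not past it.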

How the results depend on the processing

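*Fn1* was lower and called under all 17 alternatives (adjusted p 8.40e-05 to 0.0371), and *Lamb1* and *Lamc1* were lower under all 17, with adjusted p from 3.26e-04 to 0.0575 and from 0.00738 to 0.135. *Lamb2* stayed uncalled and higher throughout. With single libraries left out, 1 to 3 members were called (1 without DEN replicate 2 or DEN replicate 4) and 1098 to 1814 of all genes (1098 without DEN replicate 2, 1231 if DEN replicate 3 was left out), and the cause of the lower counts, beside fewer samples, was not tested. Same-numbered DEN and sham libraries did not deviate together (correlations 0.014, 0.016 and −0.107), so the numbers were not taken to pair them, and with a replicate block 2 members and 1335 genes were called, *Lamc1* not among them (log2 fold change −0.41, adjusted p = 0.0794). Members near 0 changed sign: with all 8 libraries *Lama4* had a log2 fold change of −0.064 and *Lama5* of −0.13, and the *Lama5* to *Lama2* ratio a difference of −0.043. With the length trend removed *Lama2* had 0.07 and *Nid1* 0.034. With single libraries left out *Lama4* ranged from −0.040 to 0.11, *Lama5* from −0.0021 to 0.21, *Nid1* from −0.12 to 0.072 and *Hspg2* from −0.037 to 0.30. The cause of these turns was not tested. With 3 DEN libraries, permutation p-values cannot go below 0.0286.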
